A study of Picea abies with 48 samples.

Results

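*PaKOR1-like* (MA_69345g0010), *PaPME5-like* (MA_10267810g0010) and *PaPECTIN LYASE-like* (MA_6752784g0010) are 3 cell-wall genes of Norway spruce (*Picea abies*), taken by these identifiers from a table of read counts for 70736 gene models. All 3 passed the filter on low counts, which kept 38436 genes. Their RNA was measured in the hypocotyl of wild-type seedlings that were grafted or left intact. In grafted plants, about 1 mm of tissue was taken above the graft junction (scion) and below it (rootstock) on days 1, 3, 7, 14 and 28 from grafting (DAG). In intact plants, 2 mm of hypocotyl was taken on the same days and on day 0. Each of the 16 groups holds 3 libraries and each library pools 5 plants, so the spread given is between pools. Intact plants were not cut, so a response to the wound and a response to the joined partner cannot be told apart.

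The growing plant cell wall is a network of cellulose, hemicellulose and pectin, and wounded or grafted tissue both loosens its walls and builds new ones. KORRIGAN1, after which *PaKOR1-like* is named, is in *Arabidopsis* a membrane-bound endo-glucanase that cuts beta-glucan chains and is needed for normal cellulose synthesis. Pectin methylesterases (PMEs), the family of *PaPME5-like*, remove methyl groups from the pectin backbone, which lets calcium bridge the chains or opens them to degradation. Pectate and pectin lyases cut that backbone, and pectate lyases prefer pectin from which the methyl groups have been removed.

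The annotation supplied with the study describes *PaKOR1-like* as an endoglucanase, *PaPME5-like* as probable pectinesterase 68 and *PaPECTIN LYASE-like* as probable pectate lyase 18. The counts measure RNA, and enzyme amount, activity and wall loosening were not measured in these libraries. The study named the 3 genes as examples of wall genes that changed with grafting in these same libraries and with applied auxin in separate ones. The auxin libraries were not used here. A difference from intact plants is thus not independent evidence of the change with grafting. The course over the 5 sampling days and the contrast between scion and rootstock are given on the same footing, since these profiles were known when the genes were chosen.

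The libraries held between 11511598 and 27687377 counted reads, and the median scion library had 18670129, the median rootstock library 19276336 and the median intact library 17241821. Levels are given as normalized reads, the counts divided by a library size factor, and are compared within a gene only. For a gene to be called, the edgeR quasi-likelihood fit had to give a Benjamini–Hochberg adjusted *p* under 0.05 over all tested genes and a log2 fold change beyond 1 in either direction. Each standard error (SE) was derived from the *F* statistic of the fit and may be understated for groups with few reads. Of 6 genes that the study used to follow wounding, cell division, phloem and xylem, none was without reads in any group. Their summed level ran from 1009.6 to 3445 normalized reads in scion, from 711 to 1962 in rootstock and from 716 to 1804 in intact libraries. Against intact plants, 2, 4, 5, 5 and 2 of the 6 were called higher in scion from 1 to 28 DAG and 2, 2, 3, 4 and 1 in rootstock, while 1 was called lower in scion at 1 DAG and 3 and 2 in rootstock at 1 and 3 DAG. Between scion and rootstock, 3, 4, 3, 0 and 0 were called higher in scion. Against intact plants, 7.27% to 13.8% of all tested genes were called higher and 1.96% to 16.5% lower in single comparisons. The shares called higher in scion than in rootstock were 6.37%, 7.13%, 5.99%, 1.78% and 0.039% from 1 to 28 DAG. The part of the 6 genes in the values below was not tested. Fewer cells of a type and less RNA per cell cannot be told apart in these pooled pieces.

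*PaKOR1-like* was higher in scion and in rootstock than in intact plants at every sampling day. On day 0, intact hypocotyls had 125, 123 and 67.0 normalized reads. At 1 DAG the libraries had 279, 406 and 458 normalized reads in scion and 358, 494 and 501 in rootstock, against 90.5, 109 and 130 in intact plants. Every grafted library was thus above every intact library of that day, a day after the cut. At 3 DAG, 269.6, 343 and 322 normalized reads were found in scion and 614, 690.1 and 720.3 in rootstock, against 85.8, 36.0 and 94.9 in intact plants. The libraries of 7 DAG had 328, 268 and 274 in scion and 654, 695 and 753 in rootstock, against 52.6, 75.9 and 76.5 in intact plants. On both days the rootstock libraries stood above all others and scion libraries stood between rootstock and intact ones. At 14 DAG the values were 219, 196 and 258 in scion and 283, 275 and 347 in rootstock, against 47.0, 73.7 and 53.5 in intact plants. At 28 DAG they were 85.3, 119 and 157 in scion and 193, 155 and 181 in rootstock, against 38.4, 37.3 and 67.9 in intact plants. On both days all grafted libraries still lay above the intact ones, with the lowest scion library of 28 DAG closest to them.

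**Figure D1:**
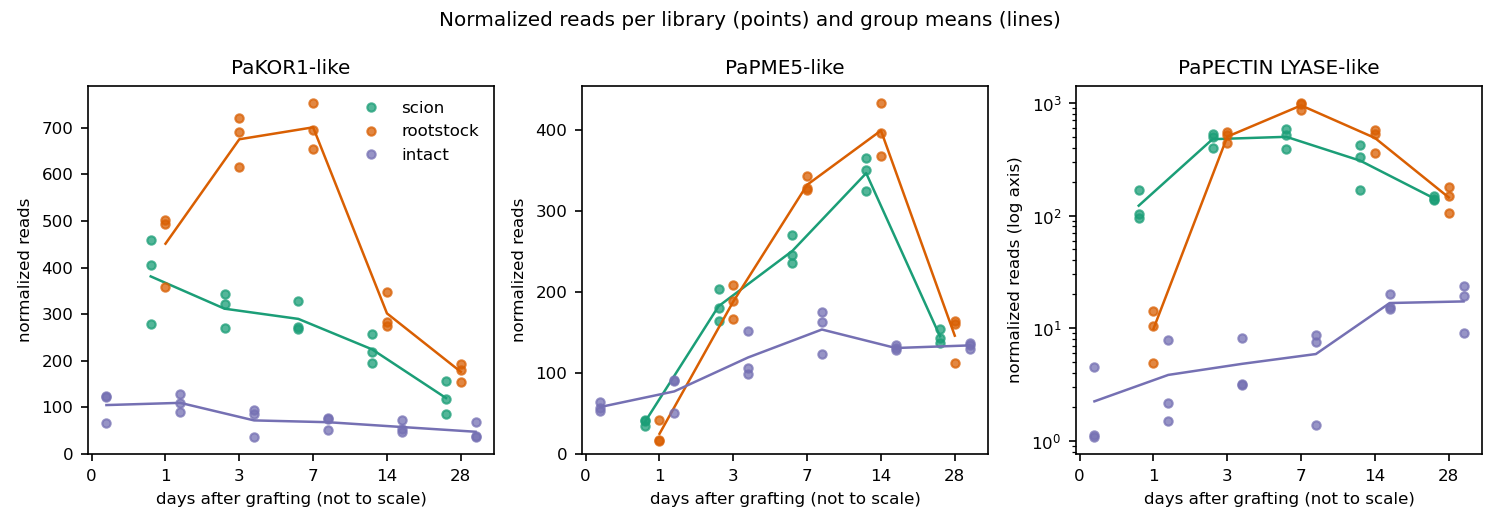
Normalized reads (y axes, log scale for *PaPECTIN LYASE-like*) of the 3 wall genes by days after grafting (x axes, evenly spaced), with 1 point per library of scion, rootstock or intact plants and lines through the means of 3 libraries. *PaKOR1-like* is highest in rootstock at 3 and 7 DAG, *PaPME5-like* is below intact plants at 1 DAG and highest at 14 DAG, and *PaPECTIN LYASE-like* reaches 1005 normalized reads in rootstock at 7 DAG while no intact library is above 23.5.

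Against intact plants, *PaKOR1-like* was called higher in all 10 comparisons, as were 336 genes (0.874% of those tested). In scion the log2 fold change was 1.78 (SE 0.23) at 1 DAG, 2.09 (SE 0.25) at 3 DAG, 2.12 (SE 0.26) at 7 DAG, 1.97 (SE 0.26) at 14 DAG and 1.32 (SE 0.27) at 28 DAG. In rootstock it was 2.02 (SE 0.23), 3.19 (SE 0.25), 3.38 (SE 0.25), 2.39 (SE 0.26) and 1.87 (SE 0.26) on the same days. In linear terms these were 2.498- to 4.35-fold differences in scion and 3.65- to 10.4-fold differences in rootstock, with edgeR adjusted *p* of 0.000228 (scion, 28 DAG) at most. Across all tested genes, 11.4%, 9.82%, 10.8%, 11% and 7.86% were called higher in scion and 13.8%, 9.56%, 7.55%, 9.31% and 7.27% in rootstock from 1 to 28 DAG.

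The rootstock difference of *PaKOR1-like* grew between 1 and 3 DAG, by 1.17 on the log2 scale (SE 0.34, edgeR adjusted *p* = 0.00775), where 7.33% of genes were called in that direction. This call was lost without replicate 2 of intact plants at 3 DAG, the library with 36.0 normalized reads, which left a change of 0.91 (adjusted *p* = 0.034). Between 3 and 7 DAG the change was 0.19 (SE 0.36), between 7 and 14 DAG −0.99 (SE 0.38, adjusted *p* = 0.114) and between 14 and 28 DAG −0.52 (SE 0.38), none of them called. In scion none of the 4 steps was called, with changes of 0.31, 0.03, −0.15 and −0.65 on the log2 scale (SE 0.34 to 0.39). Each step also holds the change of the intact level, whose mean fell from 110 to 72.2 normalized reads between 1 and 3 DAG. The rootstock mean rose from 451 to 675 over those days, while the scion mean fell from 381 to 312.

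Scion and rootstock differed in *PaKOR1-like* at 3 and 7 DAG. The scion had 312 ± 38.0 and the rootstock 675 ± 54.5 normalized reads at 3 DAG (SD, n = 3 each), a log2 fold change of −1.10 (SE 0.21, edgeR adjusted *p* = 7.4e-05). At 7 DAG the scion had 289.8 ± 33.1 and the rootstock 701 ± 50.1 normalized reads (SD, n = 3 each), a log2 fold change of −1.26 (SE 0.21, edgeR adjusted *p* = 1.11e-05). Of all tested genes, 4.48% and 4.19% were called lower in scion on those days. The libraries of the tissues overlapped at 1 DAG (−0.24, SE 0.21) and at 28 DAG (−0.55, SE 0.24), and did not overlap at 14 DAG (−0.42, SE 0.22), but none of these differences was called. At 3 DAG the fold change was close to the threshold and fell short of it, at −0.997, with scaling by library totals.

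In intact plants *PaKOR1-like* was lowest on the last day, with 47.9 ± 17.3 normalized reads at day 28 and 105 ± 33.0 at day 0 (SD, n = 3 each). It was called lower at day 28 (log2 fold change −1.10, SE 0.28, edgeR adjusted *p* = 0.00168), as were 8.06% of genes. The libraries overlapped, since day 0 replicate 3 (67.0) and day 28 replicate 3 (67.9) had nearly the same level. The call was lost with library-size scaling (−0.92), with thinned libraries (−0.96), and without day 0 replicate 1 (−0.96), day 0 replicate 2 (−0.95), day 28 replicate 1 (−0.97) or day 28 replicate 2 (−0.94). Days 1, 3, 7 and 14 were not called, with log2 fold changes of 0.06, −0.48, −0.62 and −0.84 from day 0, and day 14 was called without day 0 replicate 3 (−1.09) or day 14 replicate 2 (−1.05). Ordered by mean level, the 10 grafted groups of *PaKOR1-like* came before all 6 intact groups, with a 14.6-fold range from rootstock at 7 DAG to intact plants at day 28. Of the 15 neighbours in that order, 3 were separate, that is, their libraries did not overlap in level. Those were rootstock at 3 DAG from rootstock at 1 DAG, scion at 7 DAG from scion at 14 DAG, and scion at 14 DAG from rootstock at 28 DAG. This count was not made over all genes, so it has no such share beside it here or below.

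*PaKOR1-like* belongs to a list whose other members were not called higher in rootstock at 1 DAG. The study lists 23 putative beta-1,4-glucanases, enzymes that cut cellulose-like chains, of which 22 were tested. In scion 6, 10, 16, 15 and 13 of the 22 were called higher from 1 to 28 DAG, and 4, 1, 0, 1 and 0 lower. The 6 of 1 DAG are 27.3% of the tested glucanases, beside 11.4% of all genes, and *PaKOR1-like* ranked 5th there by log2 fold change. In rootstock 1, 11, 12, 15 and 12 were called higher on those days, and 10, 7, 1, 0 and 0 lower. Beside these counts, 7.27% (rootstock, 28 DAG) to 13.8% (rootstock, 1 DAG) of all genes were called higher in the 10 comparisons and 1.96% (rootstock, 28 DAG) to 16.5% (rootstock, 1 DAG) lower. The 11 glucanases of rootstock at 3 DAG became 7 with only the groups compared, and the 0 lower at 14 DAG became 1 under 5 other settings. The single glucanase called higher in rootstock at 1 DAG was *PaKOR1-like*, beside 13.8% of all genes called higher and 16.5% lower there, and DESeq2 called 2 glucanases higher. The median log2 fold change of the 22 in that comparison was −0.95, or −1.27 with genes that lacked reads in a group set at a floor of 3 reads or left out, beside −0.05 over all genes. At 7 DAG it was 1.74 in scion and 1.64 in rootstock, beside 0.06 and −0.0027 over all genes.

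MA_8076886g0010, the other listed gene with the annotation of *PaKOR1-like*, was not called higher in any comparison with intact plants. It had 45.5 normalized reads in rootstock and 109 in intact plants at 3 DAG, where it was called lower (log2 fold change −1.24, SE 0.20, edgeR adjusted *p* = 1.7e-06), and it was called in none of the other 9 comparisons. All 10 of its log2 fold changes were negative, between −1.24 and −0.28. Its highest group was intact plants at day 0, while the highest group of *PaKOR1-like* was rootstock at 7 DAG.

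Among the glucanases called in at least 5 comparisons, MA_8409826g0010 and MA_827790g0010, both endoglucanase 17 by annotation, had the highest mean fold change. MA_8409826g0010 had 89 reads in scion and 137 in rootstock at 28 DAG, against 1 in intact plants, and no read in any of these at 1 DAG. MA_827790g0010 had 139 normalized reads in scion and 189 in rootstock at 28 DAG, against 1.28 in intact plants, and under 0.4 in all 3 at 1 DAG. Both genes were called higher from 3 to 28 DAG in both tissues, and *PaKOR1-like* from 1 DAG. The lowest means were those of MA_54112g0010, a glycoside hydrolase, and MA_10437098g0010, an endoglucanase 6. At 1 DAG, MA_10437098g0010 had 134 normalized reads in scion and 26.5 in rootstock, against 534 in intact plants, on the day on which *PaKOR1-like* was already called higher. MA_54112g0010 had 77.9 in scion and 30.5 in rootstock, against 538 in intact plants, at 1 DAG. Neither stayed low. MA_10437098g0010 was called lower at 1 DAG in both tissues and at 3 DAG in rootstock. It was called higher at 7 DAG in scion (2.45) and at 14 DAG in scion (1.59) and rootstock (1.64). MA_54112g0010 was called lower at 1 and 3 DAG in both tissues, at 7 DAG in rootstock and at 14 DAG in scion. At 28 DAG it was called higher in scion (1.13).

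**Figure D2:**
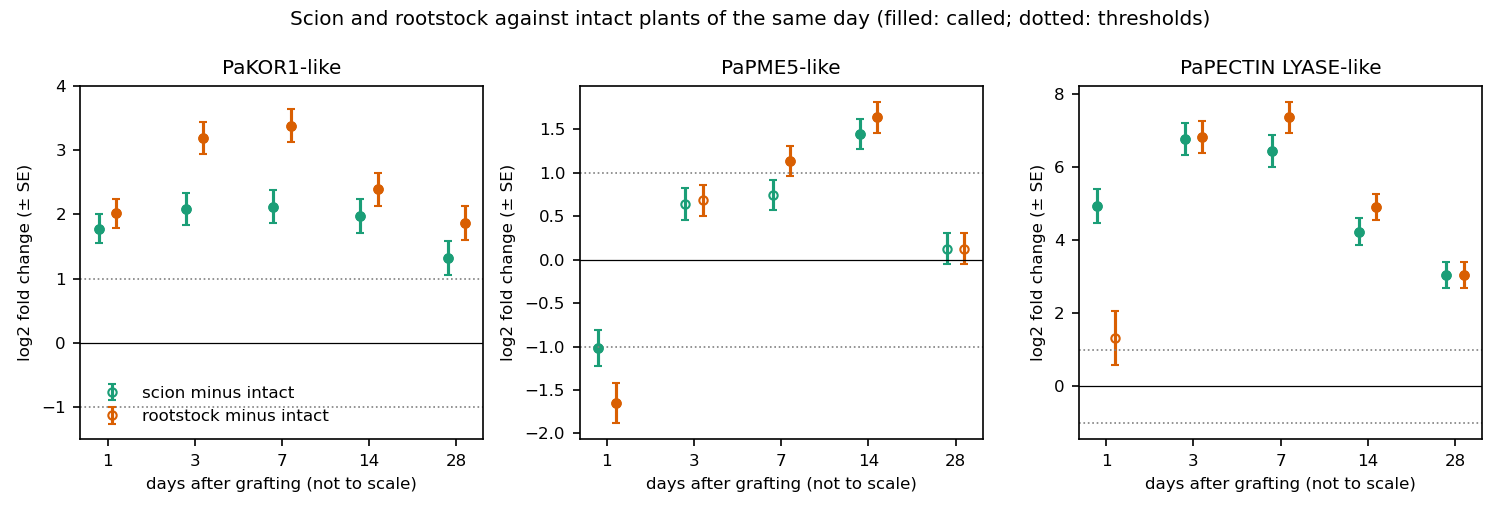
Log2 fold change (y axes, ± SE) of scion and rootstock from intact plants of the same day, by days after grafting (x axes, evenly spaced), with filled points where a gene was called and dotted lines at the thresholds. *PaKOR1-like* is called higher in all 10 comparisons, *PaPME5-like* is called lower at 1 DAG in both tissues, and rootstock at 1 DAG (1.34) is the one comparison in which *PaPECTIN LYASE-like* is not called.

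*PaPME5-like* was lower in grafted than in intact tissue at 1 DAG and higher at 14 DAG. On day 0, intact hypocotyls had 57.3, 53.5 and 63.7 normalized reads. At 1 DAG the libraries had 41.3, 41.8 and 34.7 normalized reads in scion and 17.5, 15.7 and 42.0 in rootstock, against 89.6, 91.3 and 51.2 in intact plants. Every grafted library was below every intact one, and 1 of the 3 rootstock libraries lay at the level of scion. At 3 DAG the values were 180.4, 203 and 164 in scion and 189, 167 and 209 in rootstock, against 152, 106 and 99.0 in intact plants. At 7 DAG they were 271, 246 and 236 in scion and 328, 343 and 326 in rootstock, against 175, 163 and 123 in intact plants. The grafted libraries were now above the intact ones, narrowly so at 3 DAG. At 14 DAG, 365, 350.5 and 325 normalized reads were found in scion and 433, 368 and 396 in rootstock, against 128, 130.4 and 134 in intact plants. The 28 DAG libraries had 155, 138 and 144 in scion and 161, 165 and 113 in rootstock, against 137, 130.2 and 135 in intact plants. The groups thus stood farthest apart at 14 DAG, and at 28 DAG rootstock and intact libraries overlapped.

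*PaPME5-like* was called lower at 1 DAG in both tissues, with a log2 fold change of −1.02 in scion (SE 0.21, edgeR adjusted *p* = 8.2e-05) and −1.65 in rootstock (SE 0.23, edgeR adjusted *p* = 3.95e-08). Of all tested genes, 11.3% were called lower in scion and 16.5% in rootstock on that day. The scion value lies at the threshold: 5 of the other settings put it between −0.997 and −0.84, and it passed −1 neither without replicate 1 (−0.92) or 2 (−0.88) of intact plants nor without replicate 3 of scion (−0.93). The rootstock call did not depend on any library or setting tried.

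From 3 DAG on, the differences of *PaPME5-like* were positive. They were 0.64 (SE 0.18) in scion and 0.68 (SE 0.18) in rootstock at 3 DAG, under the threshold for a call in both, and at 7 DAG 0.74 (SE 0.18) in scion, not called, and 1.14 (SE 0.17, edgeR adjusted *p* = 1.54e-06) in rootstock. Without replicate 3 of intact plants at 7 DAG the rootstock value was 0.995 and no longer called. At 14 DAG the gene was called higher in both, by 1.45 in scion (SE 0.18, edgeR adjusted *p* = 5.06e-09) and 1.64 in rootstock (SE 0.18, edgeR adjusted *p* = 4.88e-10), that is 2.72- and 3.11-fold. At 28 DAG the differences were 0.12 (SE 0.18) in scion and 0.13 (SE 0.18) in rootstock, with edgeR adjusted *p* of 0.646 and 0.669.

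The steps of *PaPME5-like* between days were tested directly. From 1 to 3 DAG its difference from intact plants grew by 1.66 in scion (SE 0.28, edgeR adjusted *p* = 2.66e-05) and by 2.33 in rootstock (SE 0.29, edgeR adjusted *p* = 3.42e-08), where 4.35% and 7.33% of genes were called in that direction. From 14 to 28 DAG it dropped by 1.32 in scion (SE 0.25, edgeR adjusted *p* = 0.000198) and by 1.51 in rootstock (SE 0.25, edgeR adjusted *p* = 7.09e-05), beside 3.14% and 2.02% of genes. The steps from 3 to 7 and from 7 to 14 DAG were 0.10 and 0.70 in scion and 0.46 and 0.50 in rootstock, none of them called. Of the 3 genes *PaPME5-like* was the one whose last step was called in both tissues, and both calls held under every setting and every left-out library.

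Between scion and rootstock *PaPME5-like* was called on no day. The log2 fold change was 0.63 at 1 DAG (SE 0.25, edgeR adjusted *p* = 0.0563), −0.04 at 3 DAG (SE 0.17), −0.39 at 7 DAG (SE 0.16, edgeR adjusted *p* = 0.0642), −0.19 at 14 DAG (SE 0.16) and −0.0012 at 28 DAG (SE 0.18). At 7 and 14 DAG all scion libraries lay below all rootstock libraries, at 251 ± 18.04 and 332 ± 9.38 normalized reads on the earlier day and at 347 ± 20.4 and 399 ± 32.6 on the later one (SD, n = 3 each). Without replicate 3 of rootstock, the library with 42.0 normalized reads, the 1 DAG difference was 1.25 and called (adjusted *p* = 0.00031).

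In intact plants *PaPME5-like* was higher from day 3 on than at day 0. Its level was 58.2 ± 5.13 normalized reads at day 0, 77.4 ± 22.7 at day 1, 119 ± 29.0 at day 3, 154 ± 27.3 at day 7, 131 ± 3.07 at day 14 and 134 ± 3.68 at day 28 (SD, n = 3 each). From day 3 on it was called higher than at day 0, with log2 fold changes of 1.04, 1.39, 1.16 and 1.21 (SE 0.20 to 0.21, edgeR adjusted *p* of 0.000487 at most), beside 1.38%, 6.81%, 7.83% and 9.87% of genes. The day 3 call was lost without day 0 replicate 2 (0.98) or day 3 replicate 1 (0.80). The rootstock at 1 DAG had the lowest mean of all 16 groups, 25.1 ± 14.7, and rootstock at 14 DAG the highest, 399 ± 32.6, a 15.9-fold range. In this order 6 of 15 neighbours were separate, against 3 for each of the other genes, a count made for the 3 genes only. The coefficient of variation within a group had a median of 9.45%, against 17.8% for *PaKOR1-like* and 29.3% for *PaPECTIN LYASE-like*. It reached 58.5% in rootstock at 1 DAG for *PaPME5-like*. For *PaPECTIN LYASE-like* it reached 90.4% in intact plants at day 1, a group of 13 reads.

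The PMEs as a group moved in both directions. Of 63 putative PMEs, many of which carry an inhibitor domain beside the esterase, 54 were tested. At 1 DAG, 6 were called higher and 17 lower in scion, and 6 higher and 26 lower in rootstock. The genes called lower, *PaPME5-like* among them, were thus 31.5% and 48.1% of those tested, beside 11.3% and 16.5% of all genes. The 6 called higher were 11.1% of the tested PMEs in each tissue, no more than the 11.4% and 13.8% of all genes. At 3, 7, 14 and 28 DAG, 16, 21, 18 and 10 were called higher in scion and 12, 6, 7 and 5 lower, while 15, 16, 18 and 8 were called higher in rootstock and 15, 7, 5 and 4 lower. At 28 DAG, 7.86% of all genes were called higher and 2.95% lower in scion, and 7.27% and 1.96% in rootstock, and on the 3 days before, 7.55% to 11% higher and 3.93% to 10.1% lower over both tissues. The 10 PMEs called higher in scion at 28 DAG became 6 with only the groups compared or with thinned libraries, and the 8 in rootstock became 5 with only the groups compared. The median log2 fold change at 1 DAG was −0.44 in scion and −1.24 in rootstock, beside −0.05 over all genes in each, or −0.49 and −1.24 with genes without reads at their floor. At 14 DAG it was 0.66 in scion and 0.78 in rootstock. Ranked by log2 fold change, *PaPME5-like* stood 11th of 54 in scion and 8th in rootstock at 14 DAG.

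MA_28575g0010, the other gene annotated as probable pectinesterase 68, differed from *PaPME5-like* in scion at 1 DAG. It had 1433 normalized reads in scion and 287 in rootstock at 1 DAG, against 772 in intact plants, so scion stood above and rootstock below the intact level. Set against intact plants, its log2 fold change came to 0.87 in scion (SE 0.12, not called) and −1.46 in rootstock (SE 0.13, edgeR adjusted *p* = 9.2e-13, called lower). Scion and rootstock differed by 2.33 (SE 0.13), a call that *PaPME5-like* lacked. At 3 and 7 DAG MA_28575g0010 was called higher in both tissues, by 1.42 and 1.29 in scion and 1.02 and 1.39 in rootstock, and at 14 DAG, the day at which *PaPME5-like* was highest, it was called in neither (0.94 and 0.84).

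Among the PMEs called in at least 5 comparisons, MA_51464g0010 and MA_259720g0010 had the highest means and MA_274107g0010 and MA_648837g0010 the lowest. MA_51464g0010, pectinesterase-like, was called higher in all 10, with 23.7 normalized reads in scion and 129 in rootstock against 1.39 in intact plants at 3 DAG. MA_259720g0010, annotated as a pectinesterase with an inhibitor domain, had 57 reads in scion and 160 in rootstock at 1 DAG and none in intact plants. Both were thus present on the day on which *PaPME5-like* was lowest. In scion MA_259720g0010 had 2 and 6 reads at 3 and 7 DAG and was not called there. Intact plants had no read of MA_259720g0010 at 1, 7 and 14 DAG, so its fitted values on those days depend on a small added count. MA_274107g0010, probable pectinesterase 53, was called lower from 3 DAG on in both tissues and had no read in scion or rootstock against 29 in intact plants at 28 DAG. MA_648837g0010, pectinesterase-like, was called lower in 9 comparisons, with 3.03 normalized reads in scion and 15.2 in rootstock against 128 in intact plants at 28 DAG.

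**Figure D3:**
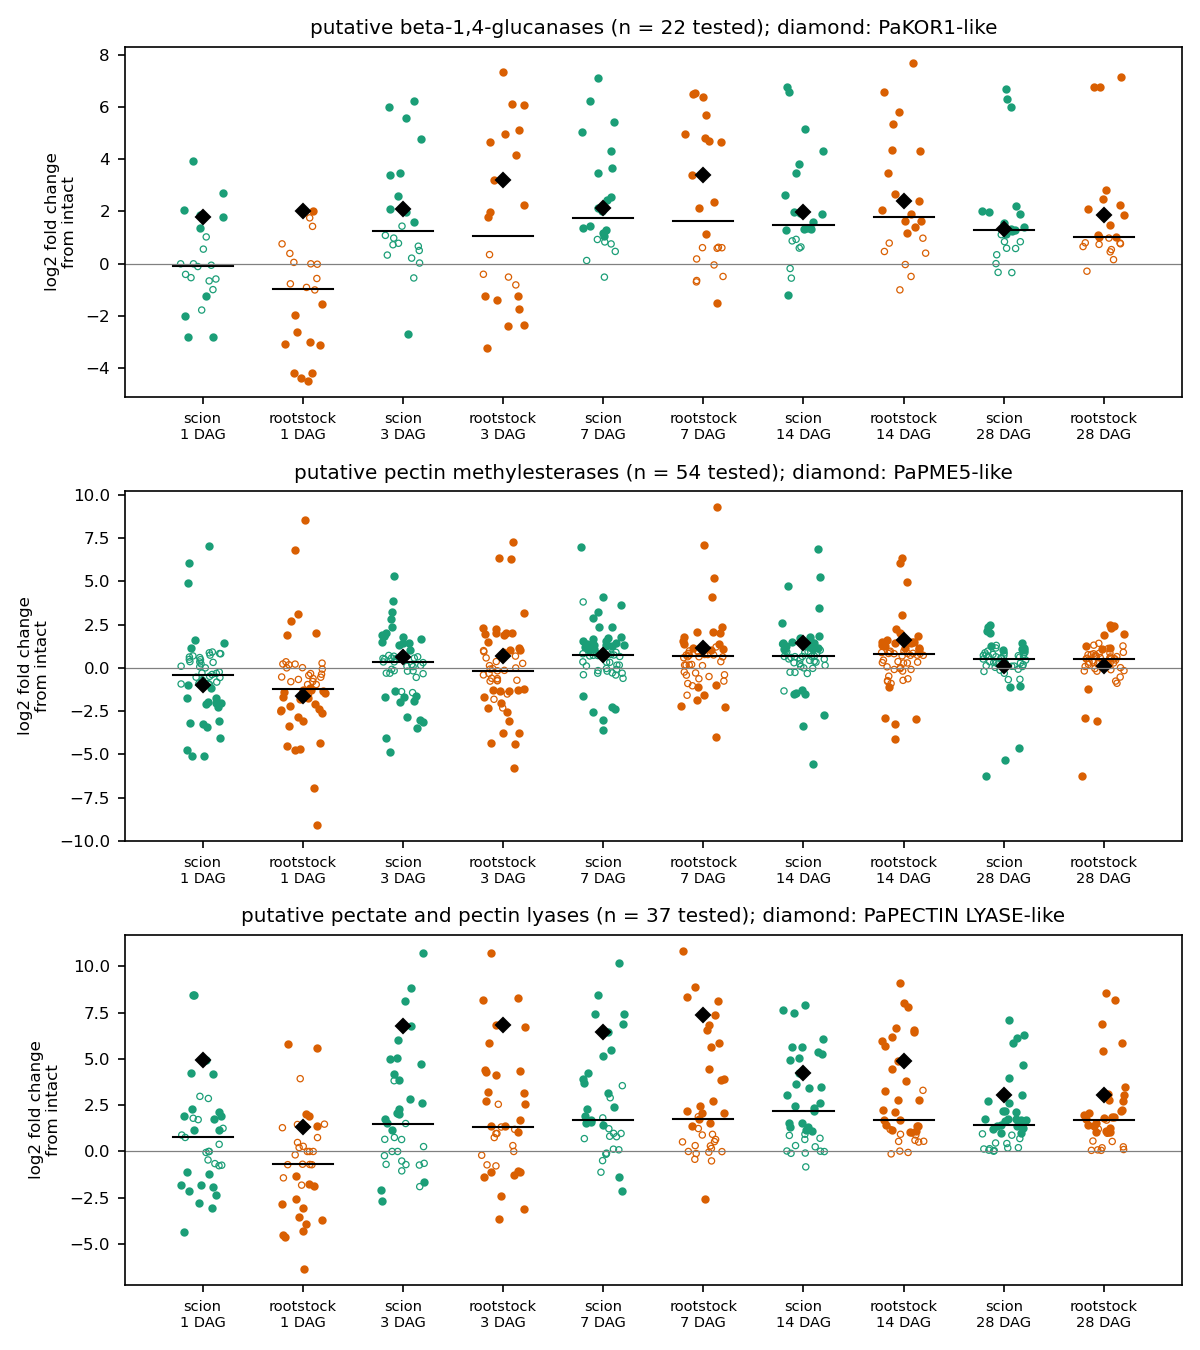
Log2 fold change from intact plants (y axes) of every tested gene in the lists of glucanases (top, 22 genes), PMEs (middle, 54) and lyases (bottom, 37), by comparison (x axes), with filled points where a gene was called, a diamond for the named gene and a bar at the list median; fitted values of genes with no reads in a group depend on a small added count. *PaKOR1-like* is the single filled point above 0 among glucanases of rootstock at 1 DAG, where the median is −0.95.

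*PaPECTIN LYASE-like* was nearly without reads in intact plants and abundant in grafted ones from 3 DAG. On day 0, intact hypocotyls had 4.52, 1.07 and 1.12 normalized reads, from 5 reads in all. At 1 DAG the libraries had 96.0, 168 and 103 normalized reads in scion and 4.87, 10.5 and 14.3 in rootstock, against 7.83, 1.51 and 2.18 in intact plants. Scion libraries stood far above the rest, whereas rootstock and intact libraries overlapped. At 3 DAG the values were 397, 499 and 535 in scion and 549, 443 and 515 in rootstock, against 3.18, 8.18 and 3.09 in intact plants. At 7 DAG they were 393, 521 and 587 in scion and 1005, 861 and 989 in rootstock, against 8.77, 1.38 and 7.50 in intact plants. Rootstock thus had scion levels by 3 DAG and stood above all scion libraries at 7 DAG. At 14 DAG the libraries had 168, 329.9 and 424 normalized reads in scion and 357, 581 and 529 in rootstock, against 19.9, 14.7 and 15.4 in intact plants. The 28 DAG libraries had 136, 140.0 and 150.2 in scion and 180.5, 149 and 105 in rootstock, against 19.2, 9.10 and 23.5 in intact plants. The gap between grafted and intact libraries narrowed on these days, and no grafted library overlapped the intact ones, while scion and rootstock libraries overlapped.

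*PaPECTIN LYASE-like* was called higher in 9 of 10 comparisons, beside 7.27% to 13.8% of genes in single comparisons and 0.874% in all 10. In scion the log2 fold change was 4.93 (SE 0.47) at 1 DAG, 6.77 (SE 0.44) at 3 DAG, 6.45 (SE 0.43) at 7 DAG, 4.24 (SE 0.36) at 14 DAG and 3.04 (SE 0.36) at 28 DAG, with edgeR adjusted *p* of 2.93e-08 at most. In rootstock it was 6.83 (SE 0.44), 7.36 (SE 0.42), 4.91 (SE 0.36) and 3.05 (SE 0.36) from 3 to 28 DAG, with edgeR adjusted *p* of 5.52e-08 at most. These correspond to 109-fold in scion and 114-fold in rootstock at 3 DAG, and 87.3-fold and 164-fold at 7 DAG. The intact groups of days 1, 3 and 7 rest on 13, 11 and 12 reads, which limits the precision of the largest folds. In rootstock at 1 DAG, with 34 reads against 13 in intact plants, the log2 fold change was 1.34 (SE 0.74, edgeR adjusted *p* = 0.122). That result depended on the setting: DESeq2 called it (1.38, adjusted *p* = 0.022), and so did edgeR without replicate 1 of intact plants, the library with 7.83 normalized reads (2.38, adjusted *p* = 0.041).

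The start of *PaPECTIN LYASE-like* differed between the tissues. At 1 DAG scion had 122 ± 39.7 and rootstock 9.87 ± 4.73 normalized reads (SD, n = 3 each), a log2 fold change of 3.60 (SE 0.40, edgeR adjusted *p* = 5.3e-09), beside 6.37% of genes called higher in scion. At 3 DAG scion had 477 ± 72.0 and rootstock 502 ± 54.0 (SD, n = 3 each), a difference of −0.06 (SE 0.23). The change of the tissue difference between these days, −3.66 (SE 0.47, edgeR adjusted *p* = 1.67e-06), was called, beside 1.37% of genes. At 7 DAG scion had 501 ± 98.5 and rootstock 952 ± 78.8 (SD, n = 3 each), with no overlap, and the difference of −0.91 (SE 0.23, edgeR adjusted *p* = 0.0025) stayed under the fold threshold. It passed without replicate 3 of scion (−1.04). At 14 DAG the difference was −0.67 (SE 0.24, edgeR adjusted *p* = 0.0805) and at 28 DAG −0.012 (SE 0.27), with overlapping libraries on both days. At 28 DAG, 66 of all tested genes (0.172%) differed between scion and rootstock, or 59 higher and 135 lower in scion with the replicate number as a block within the day, and none of the 3 wall genes was among them in either fit.

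Over the days, the difference of *PaPECTIN LYASE-like* rootstock from intact plants grew by 5.50 between 1 and 3 DAG (SE 1.19, edgeR adjusted *p* = 0.000521), where 7.33% of genes were called in that direction. Without replicate 1 of intact plants at 1 DAG this step was 4.45 and not called (adjusted *p* = 0.075). It dropped by 2.45 between 7 and 14 DAG (SE 0.76, edgeR adjusted *p* = 0.0492) and by 1.86 between 14 and 28 DAG (SE 0.59, edgeR adjusted *p* = 0.0384), beside 0.687% and 2.02% of genes. Both late calls were near the limit of *p*: the earlier was lost without any of 11 of the 12 libraries involved, with values of −2.89 to −2.00, and the later without any of 9 of 12, with values of −2.17 to −1.55 over all 12. In scion the steps were 1.83, −0.32, −2.21 and −1.20, none of them called, and the −2.21 was called by DESeq2. From 7 to 14 DAG the mean level fell from 952 to 489 normalized reads in rootstock and from 501 to 307 in scion. The intact mean rose from 5.89 to 16.7 over those days, on 12 and 40 reads. The steps of −2.45 and −2.21 thus hold this rise of a low reference as well as a fall in grafted tissue.

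In intact plants *PaPECTIN LYASE-like* was detected at few reads throughout, 5, 13, 11, 12, 40 and 56 over 3 libraries from day 0 to day 28. It was called higher than at day 0 at day 14 (log2 fold change 2.96, SE 0.89, edgeR adjusted *p* = 0.00697) and at day 28 (3.04, SE 0.84, edgeR adjusted *p* = 0.00345). Its 16 group means covered a 425-fold range, from rootstock at 7 DAG to intact plants at day 0, with 3 of 15 neighbours separate. Those 3 were rootstock at 7 DAG from rootstock at 3 DAG, scion at 1 DAG from intact plants at day 28, and intact plants at day 14 from rootstock at 1 DAG.

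**Figure D4:**
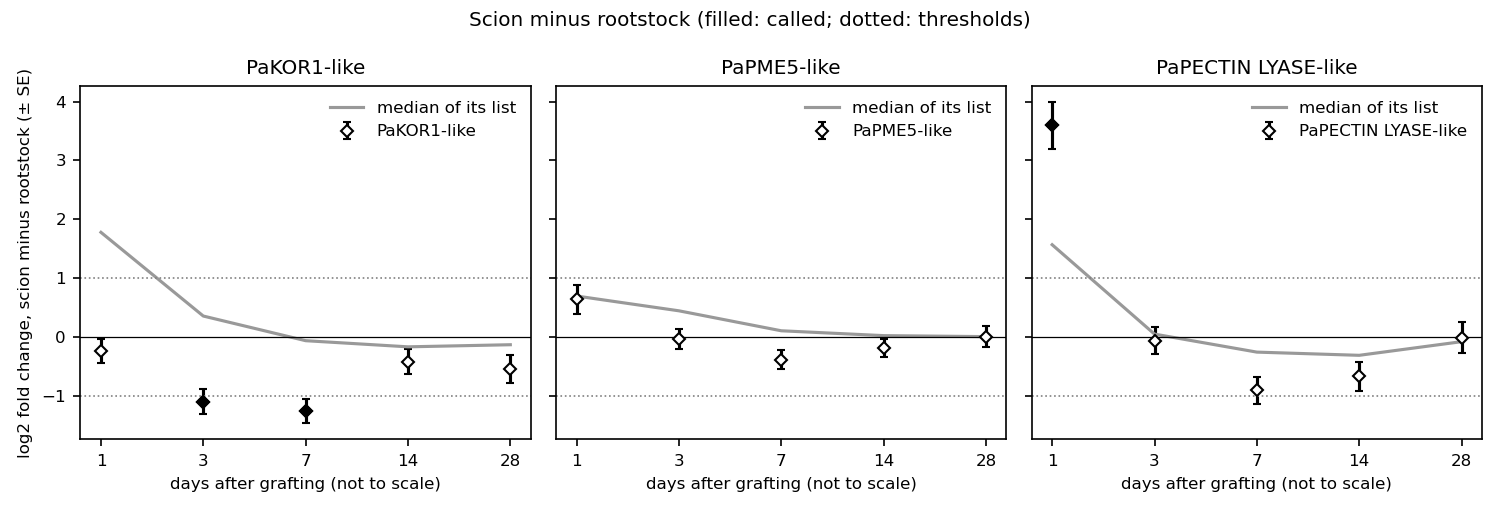
Log2 fold change of scion from rootstock (y axis, ± SE) by days after grafting (x axes, evenly spaced) for each gene (diamonds, filled where called), with dotted lines at the thresholds and a grey line for the median of the list to which the gene belongs. *PaPECTIN LYASE-like* stands at 3.60 at 1 DAG, *PaKOR1-like* at −1.10 and −1.26 at 3 and 7 DAG, and *PaPME5-like* inside the thresholds on all 5 days.

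Pectate and pectin lyases included many genes raised after grafting. All 37 listed genes were tested. At 1 DAG, 12 were called higher and 10 lower in scion, and 5 higher and 13 lower in rootstock. On that day 11.4% of all genes were called higher and 11.3% lower in scion, and 13.8% and 16.5% in rootstock. The 5 lyases called higher in rootstock are 13.5% of the list, near the share of all genes. At 3, 7, 14 and 28 DAG, 18, 19, 25 and 25 were called higher in scion and 3, 2, 0 and 0 lower, while 18, 20, 25 and 26 were called higher in rootstock and 8, 1, 0 and 0 lower. Over all genes, 9.82%, 10.8%, 11% and 7.86% were called higher in scion on those days and 9.56%, 7.55%, 9.31% and 7.27% in rootstock. The shares called lower were 7.56%, 7.23%, 7.47% and 2.95% in scion and 10.1%, 3.93%, 4.77% and 1.96% in rootstock. The median log2 fold change of the lyases was 1.51 in scion and 1.32 in rootstock at 3 DAG, or 1.40 and 1.07 with genes without reads at their floor. *PaPECTIN LYASE-like* ranked 3rd to 11th of 37 in these 10 comparisons.

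In scion against rootstock at 1 DAG, 14 of 37 lyases, 16 of 22 glucanases and 17 of 54 PMEs were called higher in scion and 0, 0 and 5 lower, beside 6.37% and 3.79% of all genes. *PaPECTIN LYASE-like* was thus one of the 14 lyases, whereas *PaKOR1-like* (−0.24) and *PaPME5-like* (0.63) were not among the called genes of their lists. At 3 DAG 2, 7 and 12 were called higher in scion, and 1, 5 and 9 lower, with *PaKOR1-like* among the 5 glucanases, beside 7.13% of all genes called higher and 4.48% lower in scion.

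Of the 6 further genes with the annotation probable pectate lyase 18, 2 had their highest mean in rootstock at 7 DAG and 4 in rootstock at 28 DAG. MA_97947g0010 was called higher in all 10 comparisons and MA_10426822g0020 in 9, with rootstock at 1 DAG the exception as for *PaPECTIN LYASE-like*. At 1 DAG MA_97947g0010 had 1070.4 normalized reads in scion and 148 in rootstock, against 3.15 in intact plants, and MA_10426822g0020 had 1303 in scion and 118 in rootstock, against 69.1 in intact plants. Scion stood above rootstock in both, by 2.86 (SE 0.24) and 3.46 (SE 0.20) on the log2 scale, as in *PaPECTIN LYASE-like*, and all 3 had their highest mean in rootstock at 7 DAG.

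The remaining 4 genes of that annotation, MA_10205415g0010, MA_594166g0010, MA_10428603g0020 and MA_10431323g0020, had their highest mean in rootstock at 28 DAG. The first and second of these were nevertheless called higher in both tissues at 3, 7 and 14 DAG, and 3 DAG was also the first day on which *PaPECTIN LYASE-like* was called in rootstock. At 3 DAG MA_10205415g0010 had 172 reads in scion and 127 in rootstock, and MA_594166g0010 had 24 in scion and 42 in rootstock, with no read of either in intact plants. MA_10205415g0010 had 249 normalized reads in scion and 671 in rootstock at 28 DAG, against 16.1 in intact plants. On that day MA_594166g0010 had 37.1 in scion and 75.1 in rootstock, against 36.0 in intact plants, with 1 intact library at 67.7. MA_10431323g0020 had 303 in scion and 308 in rootstock at 28 DAG, against 89.5 in intact plants. MA_10428603g0020 was called lower at 1 DAG, with 8.54 in scion and 1.22 in rootstock against 29.3 in intact plants, and higher at 28 DAG, with 2418 in scion and 2575 in rootstock against 392 in intact plants. At 28 DAG *PaPECTIN LYASE-like* had fallen to 14.9% of its highest group mean in scion and 15.2% in rootstock, and MA_10428603g0020 stood at 93.9% and 100.0%.

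**Figure D5:**
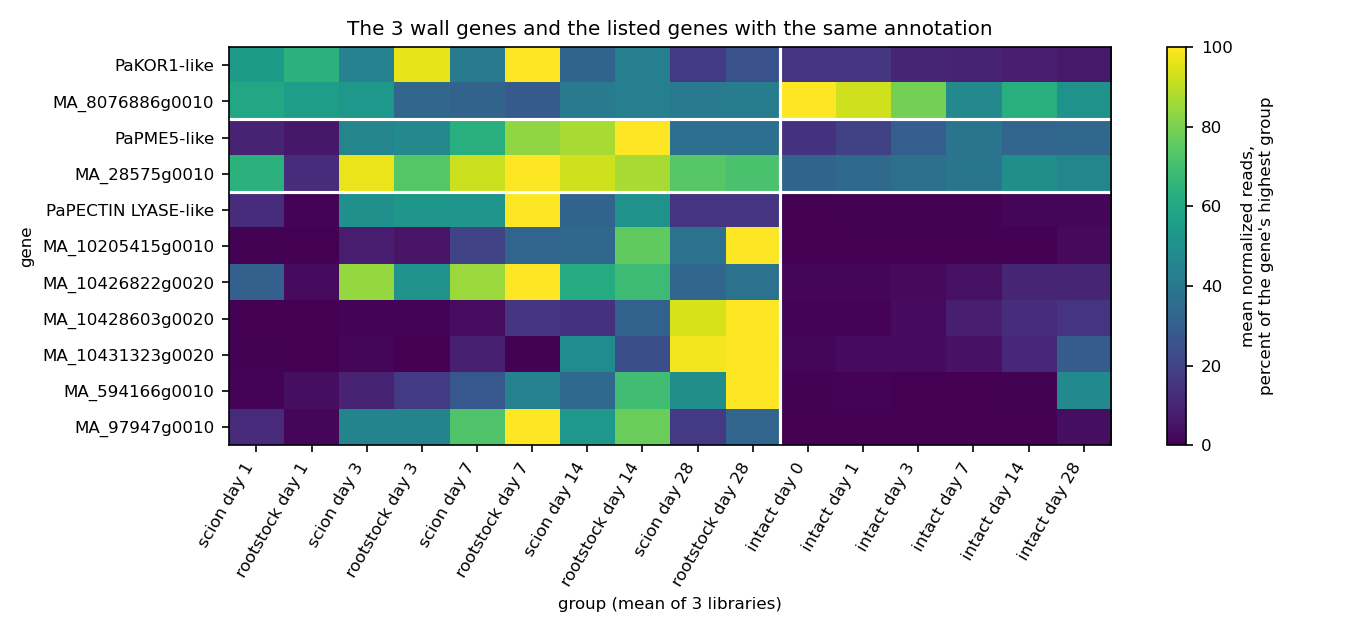
Mean normalized reads of each gene in each group as a percentage of the highest group of that gene (colour), for the 3 wall genes and the listed genes that share their annotation (rows) over the 16 groups (columns, grafted groups left of intact ones). *PaPECTIN LYASE-like*, MA_97947g0010 and MA_10426822g0020 reach 100% in rootstock at 7 DAG and the 4 other lyases in rootstock at 28 DAG, and MA_8076886g0010 is highest in intact plants at day 0.

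The most extreme lyases among those called in at least 5 comparisons also lay on both sides. MA_101171g0010, a pectate lyase, was called higher in all 10 and had 43.6 normalized reads in scion and 6.62 in rootstock at 1 DAG, where intact plants had no read. MA_103716g0010, probable pectate lyase 5, had 8.84 in scion and 2.16 in rootstock against 174 in intact plants at 1 DAG, and 3636 in scion and 4119 in rootstock against 1073 in intact plants at 28 DAG. MA_10428603g0010, probable pectate lyase 8, likewise had 1.98 and 0.616 against 17.2 at 1 DAG and 1774 and 1840 against 273 at 28 DAG, in scion and rootstock against intact plants.

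The 3 genes did not follow a single course. Over the 16 group means of log2 normalized reads, Pearson's *r* was 0.71 for *PaKOR1-like* with *PaPECTIN LYASE-like*, 0.65 for *PaPECTIN LYASE-like* with *PaPME5-like* and 0.12 for *PaKOR1-like* with *PaPME5-like*. These values describe groups of one experiment, in which scion and rootstock pools of a day may share plants. At 1 DAG *PaKOR1-like* was called higher in both tissues, *PaPECTIN LYASE-like* in scion, and *PaPME5-like* was called lower in both. As given above, the scion call of *PaPME5-like* was lost under 5 settings and without any of 3 libraries, and DESeq2 also called *PaPECTIN LYASE-like* higher in rootstock (1.38, adjusted *p* = 0.022). The highest group mean fell in rootstock for all 3, at 7 DAG for *PaKOR1-like* and *PaPECTIN LYASE-like* and at 14 DAG for *PaPME5-like*. At 28 DAG *PaKOR1-like* and *PaPECTIN LYASE-like* were still called higher in both tissues and *PaPME5-like* in neither.

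Among all tested genes, those most similar to *PaKOR1-like* in profile over the 16 group means (log2 of normalized reads plus 1) were MA_766954g0010 (*r* = 0.97), MA_338404g0010 (*r* = 0.96) and MA_10047384g0010 (*r* = 0.96), the last annotated as a probable leucine-rich repeat receptor kinase. The most similar glucanase, MA_42717g0010, an endoglucanase 6, had an *r* of 0.83 and came 617th. The closest to *PaPME5-like* were MA_54654g0010 (*r* = 0.96), MA_7952g0010 (*r* = 0.95) and MA_121643g0010 (*r* = 0.94), and among PMEs MA_2409806g0010 (*r* = 0.89), in place 71. The closest to *PaPECTIN LYASE-like* were MA_4122248g0010, MA_10431004g0010 and MA_10425925g0010, each with an *r* of 0.98, and in place 4 the lyase MA_101171g0010, also at 0.98. All 6 genes most like *PaKOR1-like* and *PaPECTIN LYASE-like* were called higher in all 10 comparisons, as were 0.874% of tested genes. The genes most like *PaPME5-like*, in the order given, were called higher in 3, 0 and 0. These genes were picked on the same groups that give the calls, so their calls are not separate evidence.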

How the data were processed

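RNA-seq of scion, rootstock and intact *Picea abies* hypocotyl was analysed from the deposited whole-number counts. The authors made stranded poly(A) libraries, filtered out rRNA (SortMeRNA), trimmed the reads (fastp), mapped them to the Norway spruce genome (STAR) and tallied them by gene (HTSeq), without scaling. Reads of near-identical gene copies cannot be separated in such counts, and no sequence or position was used here. The 48 libraries (16 groups of 3) were fitted in one quasi-likelihood model (edgeR 4.0.16, R 4.3.3, filterByExpr with a minimum count of 10, TMM scaling). Calls use an adjusted *p* under 0.05 and an absolute log2 fold change over 1. Normalized reads use DESeq2 1.42.0 size factors. In all, 32 comparisons were made: 10 against intact plants, 5 between tissues, 5 with day 0, and 12 changes between days. The fit was also tested on simulated counts. There edgeR recovered 92% of 100 genes changed by 1.5 on the log2 scale in scion against intact plants at 1 DAG. It recovered 75% in the change of that difference between 1 and 3 DAG, so a step that was not called may have been missed. Changed genes were drawn above a minimum mean count and had the same baseline in all groups. These shares may not hold for *PaPECTIN LYASE-like*, whose intact groups hold 5 to 56 reads.

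The genes and lists were chosen with earlier results of these data known. Lists are the study's putative wall genes. Named from them were genes with the same annotation as one of the 3, the 2 highest and 2 lowest by mean log2 fold change among those called in at least 5 comparisons with intact plants, and the most similar profiles. Replicate numbers paired scion with rootstock at 7, 14 and 28 DAG (every pair's correlation of deviations from the group mean was 0.13 to 0.40) and at no other comparison. Alternatives were DESeq2, RLE or library-size scaling, no filter or 1 CPM in 6 libraries, a replicate block, thinning to 11511598 reads, fits restricted to the compared groups, and omission of every library in turn. Replicates are separate pools, and their counts differed by 3.15 to 15.6 times the sampling variance.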

Additional observations from a re-analysis of the deposited data

Results flagged for a closer look

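Differences between scion and rootstock, and changes of a graft response between days, were tested for all 3 genes, and 12 of them passed the threshold in the edgeR fit. Between the tissues, *PaPECTIN LYASE-like* was higher in scion at 1 DAG by 3.60 on the log2 scale, and *PaKOR1-like* had log2 fold changes of −1.10 at 3 DAG and −1.26 at 7 DAG, lower in scion. The tissue difference of *PaPECTIN LYASE-like* changed by −3.66 between 1 and 3 DAG. Between 1 and 3 DAG the difference of scion from intact plants changed by 1.66 for *PaPME5-like*, and the difference of rootstock from intact plants by 1.17 for *PaKOR1-like*, 2.33 for *PaPME5-like* and 5.50 for *PaPECTIN LYASE-like*. Between 7 and 14 DAG it changed by −2.45 for *PaPECTIN LYASE-like* in rootstock. Between 14 and 28 DAG it changed by −1.32 in scion and −1.51 in rootstock for *PaPME5-like*, and by −1.86 in rootstock for *PaPECTIN LYASE-like*. Responses of both tissues are measured from the same intact libraries of a day, so a step between days also holds any change of the intact level.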

How the results depend on the processing

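Each of the 96 log2 fold changes of the 3 genes was recomputed under the other settings, which gave 790 values: 758 kept direction and side of the threshold, 12 lost a call, 5 gained one and 15 changed sign, and the cause was not tested. Scaling by library totals shifted the median of all genes in scion against intact plants to 0.12, 0.20, 0.22 and 0.25 at 1, 3, 7 and 14 DAG, against −0.05, 0.04, 0.06 and 0.07 with TMM, and the share of calls that were higher to 62.2%, 68.03%, 70.4% and 71.3%, against 50.2%, 56.5%, 59.8% and 59.6%. In scion against rootstock at 1, 7 and 14 DAG that share was 73.4%, 71.0% and 67.1%, against 62.7%, 58.8% and 56.0%.

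For *PaPME5-like* in scion at 1 DAG the call was lost with library-size scaling (−0.84), thinning (−0.84), no filter (−0.97), only the groups compared (−0.97) and RLE scaling (−0.997). *PaKOR1-like* lost its calls at intact day 28 (−0.92 with library-size scaling, −0.96 thinned) and in scion against rootstock at 3 DAG (−0.997 with library-size scaling), and gained them in the rootstock step from 7 to 14 DAG (−1.02, only the groups compared) and its tissue change over those days (1.01, thinned). *PaPECTIN LYASE-like* lost the rootstock step from 7 to 14 DAG (−2.36 with library-size scaling, −2.497 unfiltered) and from 14 to 28 DAG (−1.86 unfiltered, −1.58 thinned), and gained rootstock at 1 DAG (1.38, DESeq2) and the scion step from 7 to 14 DAG (−2.22 with DESeq2, −2.57 thinned).

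Signs changed only among values that were not called. Thinning gave −0.049 for the rootstock step of *PaKOR1-like* from 3 to 7 DAG, 0.10 for its scion step from 7 to 14 DAG, and for scion steps from 3 to 7 DAG −0.34 in *PaKOR1-like*, 0.047 in *PaPECTIN LYASE-like* and −0.059 in *PaPME5-like*. That step of *PaKOR1-like* was −0.0057 unfiltered and −0.0030 with only the groups compared. In scion against rootstock, library-size scaling gave 0.020 at 28 DAG and 0.040 at 3 DAG for *PaPECTIN LYASE-like*, and 0.031 and 0.068 for *PaPME5-like*. *PaPME5-like* at 28 DAG was also 0.00080 with the replicate block over all groups, 0.0035 with the replicate block within the day, 0.00044 with the stricter filter and 0.060 thinned. The replicate block changed no call of the 3 genes.

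Fitting only the groups compared gave 1812 genes called higher in rootstock at 28 DAG, against 2796, and list counts of 7 glucanases higher in rootstock at 3 DAG, 0 lyases lower in rootstock at 7 DAG, and 6 and 5 PMEs higher at 28 DAG in scion and rootstock. Thinning also gave 6 PMEs higher in scion at 28 DAG. In rootstock at 14 DAG, 1 glucanase was called lower, against 0, with DESeq2, no filter, only the groups compared, RLE scaling or thinning. In scion against rootstock at 28 DAG, DESeq2 called 91 genes lower.

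Leaving out each library gave 792 values, of which 723 kept direction and call. For *PaKOR1-like* the changed results ranged from −0.19 to 0.22 (intact day 1), −1.09 to −0.67 (day 14) and −1.45 to −0.94 (day 28), from 0.91 to 1.40 and −0.036 to 0.46 (rootstock steps to 3 and 7 DAG), from −0.19 to 0.30 and −0.25 to 0.063 (scion steps to 7 and 14 DAG), and from −1.05 to −0.72 and −0.35 to 0.053 (tissue change to 3 and 28 DAG). For *PaPME5-like* they ranged from 0.80 to 1.17 (intact day 3), −1.22 to −0.88 (scion, 1 DAG), 0.995 to 1.24 and −0.0013 to 0.26 (rootstock, 7 and 28 DAG), −0.13 to 0.24 (scion step to 7 DAG), 0.38 to 1.25, −0.15 to 0.042 and −0.16 to 0.10 (scion against rootstock at 1, 3 and 28 DAG) and −1.29 to −0.42 (tissue change to 3 DAG). For *PaPECTIN LYASE-like* they ranged from −0.16 to 1.69 (intact day 1), 0.89 to 2.38 (rootstock, 1 DAG), 4.45 to 5.96, −2.89 to −2.00 and −2.17 to −1.55 (rootstock steps to 3, 14 and 28 DAG), −0.86 to 0.036, −2.60 to −1.70 and −1.51 to −0.88 (scion steps to 7, 14 and 28 DAG), −0.18 to 0.050, −1.04 to −0.76 and −0.20 to 0.17 (scion against rootstock at 3, 7 and 28 DAG) and −0.0017 to 0.54 (tissue change to 14 DAG). Intact groups of *PaPECTIN LYASE-like* hold 5 to 56 reads, which limits its precision.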

Other observations

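The lists to which the 3 genes belong also changed with age in intact plants. At day 28, 19 of 37 lyases were called higher and 3 lower than at day 0, against 7 and 4 of 22 glucanases and 8 and 11 of 54 PMEs, while 9.87% of all tested genes were called higher and 8.06% lower. At day 1 none of the tested genes of the 3 lists was called in the edgeR fit, beside 0.148% of all genes called higher and 0.0676% lower. *PaPECTIN LYASE-like* was among the 19 lyases, *PaPME5-like* among the 8 PMEs and *PaKOR1-like* among the 4 glucanases called lower. The median log2 fold change of the lyases at day 28 was 1.21, or 2.25 with genes without reads set at a floor of 3 reads or left out, beside 0.03 over all genes.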
